A study of Mus musculus with 2 samples.

Results

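YAP and TAZ, the latter encoded by Wwtr1, are transcriptional coactivators at the end of the Hippo pathway. When the Hippo kinases of the Mst and Lats families are active, YAP and TAZ are phosphorylated and held in the cytoplasm. When the kinases are inactive, for instance in spread cells on a stiff matrix, YAP and TAZ enter the nucleus and bind the TEAD factors, which recognise DNA. In the pancreas they are known for their part in the change of acinar cells to ductal cells and in pancreatic tumours. The 9 genes described here, Ccn1, Ccn2, Ankrd1, Amotl2, Ajuba, Axl, Crim1, Nt5e and Ptpn14, are commonly used as readouts of YAP and TAZ activity. They were taken by symbol from the 32285 genes of the count tables, where all 9 were found, by a rule that reads the symbol alone.

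The tumours came from KPPC mice, which develop pancreatic cancer through engineered alleles, at an age of 6 weeks, and RNA was measured cell by cell. The 1 vehicle library came from mice given vehicle, and the 1 takinib library from mice given takinib at 50 mg/kg. Treatment lasted 14 days in both. Takinib inhibits the kinase TAK1, which Map3k7 encodes, and the comparison asks how tumour cells differ after its use. The alleles of the KPPC mice, the promoter of their Cre and the number of mice pooled per library are not given in the sources used here. Because each group is a single library, the treatments could not be compared by a test and no difference has a replicate check. Each interval in square brackets is an exact 95% interval that covers counting error only.

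The promoters of the members show the site through which YAP and TAZ are thought to act. TEAD factors bind the letters GGAATG, or CATTCC when read on the other strand. In RefSeq's table of promoters (GRCm38.p6, 250 bases before to 50 bases after each annotated start) 8 of the 9 members were matched by symbol, and Ccn2 was not. On either strand, 7 of these 8 promoters held the TEAD letters, against 14.7% of all 32851 promoters in the table. Nt5e was the member without a match, which says only that these letters are not in this window. The AP-1 letters TGANTCA, which share no overlap with the TEAD letters, were in 0 of the 8 and in 7.81% of all promoters. The windows of 30 bases around each TEAD match are printed on the strand of the gene, with the match in capitals. The offset is the position of the first capital, counted from the annotated start.
Ccn1, chr3:145650071-145650100, minus strand, offset -103: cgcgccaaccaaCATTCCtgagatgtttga
Ankrd1, chr19:36120037-36120066, minus strand, offset -210: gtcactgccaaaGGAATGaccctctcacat
Ankrd1, chr19:36119950-36119979, minus strand, offset -123: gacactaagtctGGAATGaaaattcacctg
Amotl2, chr9:102717727-102717756, plus strand, offset -65: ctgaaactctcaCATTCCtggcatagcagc
Ajuba, chr14:54577830-54577859, minus strand, offset -186: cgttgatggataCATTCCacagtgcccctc
Ajuba, chr14:54577808-54577837, minus strand, offset -164: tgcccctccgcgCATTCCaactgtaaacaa
Axl, chr7:25788949-25788978, minus strand, offset -233: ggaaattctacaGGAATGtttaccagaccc
Crim1, chr17:78200157-78200186, plus strand, offset -79: agggcgggggggGGAATGaggtaggatggg
Ptpn14, chr1:189728110-189728139, plus strand, offset -146: cctccccggacgCATTCCtggcccgcccag
Ankrd1 and Ajuba held 2 matches each and the other 5 genes held 1. RefSeq's start can differ from that of the GENCODE annotation, and the windows of Amotl2 and Ankrd1 lie inside the GENCODE loci of these genes given at the end. A match of 6 letters describes the sequence and does not show that a factor binds there.

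The same filters left 9591 cells of the vehicle library, with 42140002 UMIs (unique molecular identifiers, which count captured transcripts), and 25183 cells of the takinib library, with 119674852. The libraries differed in much besides the drug. The vehicle matrix was unfiltered, whereas no takinib barcode held under 500 UMIs. The median mitochondrial share was 8.71% and 1.78%. Of the vehicle cells, 1081 held Xist without Y-linked UMIs and 3098 the reverse, while the takinib library held 0 Y-linked UMIs, so the vehicle library pooled animals of both sexes. Neutrophils were 0.354% of vehicle cells and 49.2% of takinib cells. Among barcodes past the filters 400 sequences occurred in both libraries, 4.05% of the vehicle barcodes and 1.49% of the takinib ones. None of these differences can be told apart from the treatment.

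Clusters were made without the 9 members and without the other genes listed below, and were named from fixed markers. The epithelial-like class (called epithelial from here) held 1200 vehicle and 1092 takinib cells, and its summed markers, among them Epcam and Krt19, stood at 8611 and 9265 CPM (UMIs of the gene scaled to 1e+06 UMIs of the class and library). The fibroblast-like class (Col1a1, Dcn) held 665 and 312 cells with 37424 and 23950 CPM of its markers. The perivascular-like class (Rgs5, Notch3) held 578 and 15 cells with 14406 and 8143 CPM. The endothelial-like class (Pecam1, Cdh5) held 672 and 80 cells with 9348 and 7536 CPM. In the 15 takinib perivascular cells the summed fibroblast markers reached 11203 CPM, above their own markers, so this group was thin and mixed.

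Where the members were expressed is described first, gene by gene and within the vehicle library, since UMI counts compare 1 gene across cells and not different genes. Ccn1, a secreted matricellular protein that binds integrins, stood at 136 CPM [128, 144] in epithelial, 166 [151, 182] in fibroblast, 146 [130, 163] in perivascular and 91.7 [78.7, 106] in endothelial cells, with endothelium below the other 3. Ccn2, the related connective tissue growth factor, was lowest in endothelial cells at 202 CPM [182, 223]. Above it came epithelial cells at 430 [416, 445], fibroblasts at 512 [486, 539] and perivascular cells at 562 [531, 594], where the intervals of the last 2 overlapped. Both genes were thus found in all 4 classes.

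Ankrd1, an ankyrin repeat protein of the nucleus and the sarcomere, was found mainly in epithelium among these 4 classes. Its 672 UMIs in vehicle epithelial cells gave 84.8 CPM [78.5, 91.4], against 1.79 [0.580, 4.17] in fibroblasts, 1.37 [0.282, 3.99] in perivascular and 1.04 [0.126, 3.77] in endothelial cells. The last 3 values lay at or below the 4.90 CPM [4.02, 5.92] of vehicle barcodes with at least 200 and under 500 UMIs, which are mostly empty droplets and carry free RNA. Ankrd1 was therefore not detectable above free RNA in these 3 classes of the vehicle tumour.

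The members that act on Hippo signalling and cell junctions each had another pattern. Amotl2, an angiomotin that holds YAP at junctions, was highest in fibroblasts at 119 CPM [107, 132], while perivascular and endothelial cells lay together at 83.7 [72.1, 96.8] and 82.9 [70.5, 96.8] and epithelial cells at 58.8 [53.6, 64.4]. Ajuba, a LIM protein that inhibits Lats kinases, was highest in perivascular cells at 91.0 CPM [78.8, 105] and lowest in fibroblasts at 11.8 [8.12, 16.6], with epithelial cells at 38.6 and endothelial cells at 23.5 between. Ptpn14, a phosphatase that binds YAP, was highest in endothelial cells at 102 CPM [88.4, 118], while the other 3 classes lay between 28.6 and 35.3 with overlapping intervals.

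The members at the cell surface also divided by class. Axl, a receptor tyrosine kinase for Gas6, was highest in perivascular cells at 284 CPM [262, 307] among these 4 classes and lowest in endothelial cells at 19.3 [13.6, 26.6]. Macrophages, in which Axl takes part in the clearance of dead cells, reached 402 CPM, and empty droplets held 82.9 CPM. Crim1, a transmembrane protein that binds bone morphogenetic proteins, was highest in endothelial cells at 244 CPM [222, 267], followed by perivascular cells at 166, fibroblasts at 60.8 and epithelial cells at 53.2, the last 2 with overlapping intervals. Nt5e, the enzyme CD73 that makes adenosine outside the cell, stood at 211 CPM [201, 221] in epithelial cells, against 9.10 [5.56, 14.1] in perivascular cells and at most 22.5 in fibroblasts and endothelium. Empty droplets held 44.1 CPM of Nt5e, so its level in the last 3 classes was not above free RNA.

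**Figure D1:**
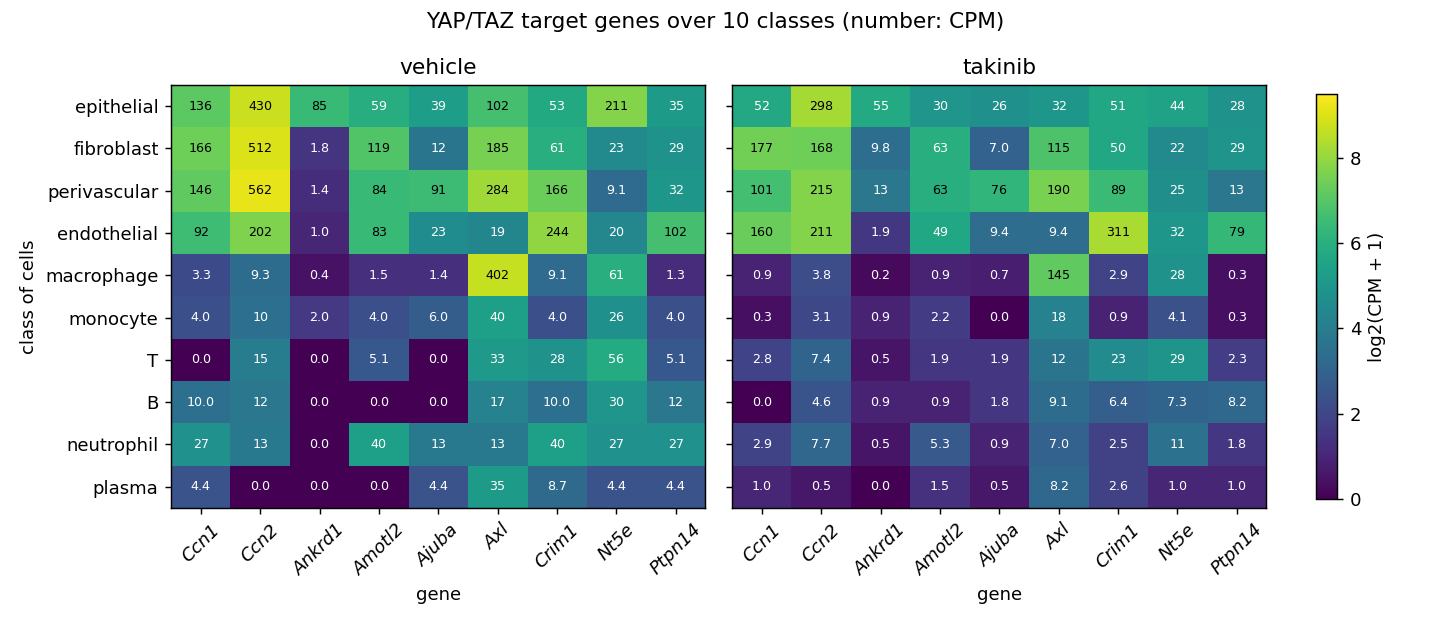
Level of each member (columns) in 10 classes of cells (rows) of the vehicle and the takinib library; colour is log2(CPM + 1) and the number in each box is the CPM. Ankrd1 reached 84.8 CPM in vehicle epithelial cells and Crim1 244 CPM in vehicle endothelial cells, while Axl was also high in macrophages at 402 CPM.

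In epithelial cells all 9 members had a lower CPM in the takinib library than in the vehicle library. Nt5e, Axl and Ccn1 were lower by more than a log2 ratio of 1, which is 3 of 9 members, and 0 members were higher by that much. Among the 14977 genes measured deeply enough in this class, 11.9% were lower and 9.79% higher past the same line. The median log2 ratio of the members was -0.63, against -0.17 over all those genes. A gene counted as measured deeply enough if at least 5 UMIs were expected in each library at its pooled rate.

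Nt5e showed the greatest epithelial difference of the 9, with 211 CPM in vehicle and 43.8 CPM [40.1, 47.7] in takinib. Its log2 ratio was -2.27 [-2.41, -2.12], from 1669 and 519 UMIs. The takinib level was close to the 44.1 CPM of free Nt5e RNA in vehicle empty droplets, and the takinib matrix holds no empty droplets to compare. Axl came next, with 102 CPM [95.3, 109] in vehicle, 31.9 [28.7, 35.2] in takinib and a log2 ratio of -1.68 [-1.86, -1.50]. Vehicle empty droplets held 82.9 CPM of Axl, below the vehicle epithelial level by less than a log2 ratio of 1 and above the takinib one. Macrophage markers, whose cells carry Axl, came together to 910 CPM of vehicle and 675 CPM of takinib epithelial UMIs, and their part in the Axl value was not tested.

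Ccn1 and Ccn2, the matricellular pair, differed in size. Ccn1 stood at 136 CPM in vehicle and 51.6 CPM [47.6, 55.8] in takinib epithelial cells, a log2 ratio of -1.40 [-1.54, -1.25]. Ccn2 stood at 430 and 298 CPM [288, 308], with a log2 ratio of -0.53 [-0.60, -0.46], so that its interval and that of Ccn1 did not overlap. Ankrd1 had 84.8 and 55.0 CPM [50.8, 59.3] and a log2 ratio of -0.63 [-0.78, -0.47].

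None of the junction and Hippo members, nor Crim1, passed the log2 ratio of 1. Amotl2 was just short of the log2 ratio of 1, at -0.97 [-1.18, -0.77], with 58.8 and 29.9 CPM. Ajuba, with 38.6 and 26.2 CPM, had -0.56 [-0.79, -0.33]. Ptpn14, with 35.3 and 27.7 CPM, had -0.35 [-0.59, -0.12]. Crim1, at 53.2 and 50.8 CPM, had a log2 ratio of -0.07 [-0.25, 0.11] and was the member whose interval spanned 0 in this class.

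**Figure D2:**
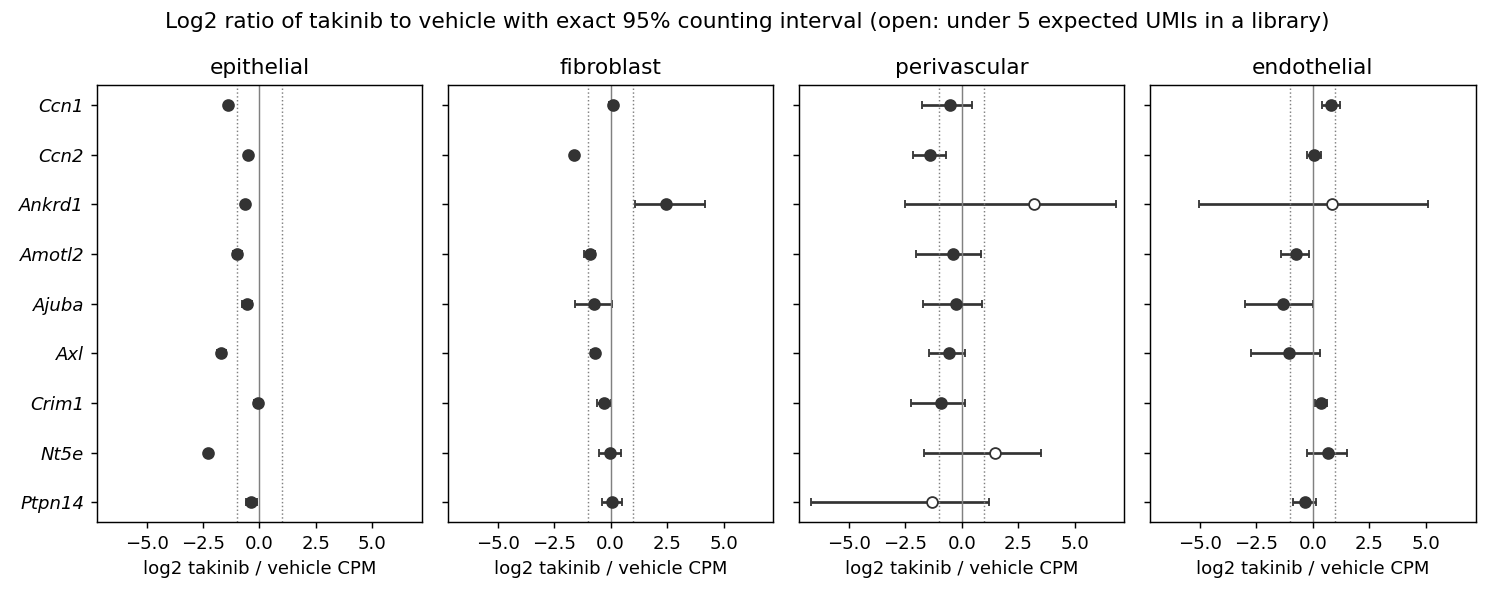
Log2 ratio of takinib to vehicle CPM (x axis) for each member (rows) in the 4 classes (panels), with exact 95% counting intervals; dotted lines mark a log2 ratio of 1 in either direction and open points have too few UMIs to be counted. All 9 epithelial points lie left of 0, down to -2.27 for Nt5e, whereas the endothelial points for Ccn1 and Crim1 lie at 0.80 and 0.35.

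Other features of the takinib epithelial cells moved alongside. The neutrophil transcripts S100a8 and S100a9 came to 92.7 CPM of vehicle and 11273 CPM of takinib epithelial UMIs, median depth was 4750.5 and 7532 UMIs, and the mitochondrial share was 8.40% and 3.58%. The 16 genes of dissociation and immediate-early response summed to 3127 and 6364 CPM. Subtracting the takinib neutrophil profile, which took away 8.28% of the takinib UMIs, left 3 members past a log2 ratio of 1. With every cell thinned to 1000 UMIs the 9 ratios stayed below 0 and 5 members were lower past the line, with Nt5e at -2.0, Ccn1 at -1.72, Ajuba at -1.30, Ptpn14 at -1.01 and Amotl2 at -1.0. Axl, at -0.95, was then no longer past it. The part of the early response was not tested.

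The epithelial class was made of clusters that differed in their use of the members. The cluster led by Cdkn2a, with 841 vehicle and 746 takinib cells, held most of the class in both libraries. Within it 4 members were lower past a log2 ratio of 1 and 0 were higher, against 9.37% lower and 10.3% higher of 14273 genes. These were Nt5e at -2.30 [-2.46, -2.15], Axl at -1.88 [-2.07, -1.69], Ccn1 at -1.46 [-1.62, -1.31] and Amotl2 at -1.06 [-1.27, -0.85]. A separate, finer clustering gave a cluster led by Tnc and F2r with 794 and 413 cells, in which takinib cells carried 2247 CPM of S100a8 and S100a9. There Nt5e had -2.27, Ccn1 -1.49, Axl -1.36 and Amotl2 -0.98, so 3 members were lower past the line (8.27% of 13838 genes lower, 8.76% higher). Another cluster of the finer clustering, led by Prss22 and S100a14, had 398 takinib and 0 vehicle cells, with 52.5 CPM of Ccn1, 40.8 of Nt5e and 17.7 of Axl.

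The cluster led by Mir100hg held 270 vehicle and 48 takinib cells and did not follow the class for every gene. Nt5e stood there at 425 CPM [376, 480] in vehicle and 175 [104, 277] in takinib, and Ccn2 at 599 [539, 663] and 175 [104, 277]. Ccn1 was at 165 [135, 200] and 262 [173, 382], Axl at 46.5 [31.2, 66.8] and 97.2 [46.6, 179], and Ankrd1 at 46.5 [31.2, 66.8] and 87.5 [40.0, 166], each higher in takinib with overlapping intervals. The takinib values rest on 9 to 27 UMIs. In takinib cells of this cluster fibroblast markers came to 2722 CPM, above the 1905 CPM of epithelial markers. In vehicle cells these stood at 432 and 3126 CPM. From vehicle to takinib, acinar markers came to 440 and 1672 CPM, and S100a8 with S100a9 to 229 and 5551 CPM. Median depth was 1907 and 1458.5 UMIs, and the mitochondrial share 15.4% and 10.3%. The part of these features in the values was not tested.

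Differentiated epithelium carried few transcripts of most members. In the goblet-type cluster led by Muc2 and Spink4 the vehicle level was 1.61 CPM for Ccn1 and 4.84 for Ccn2, and 0 UMIs of Ankrd1, Amotl2 and Ajuba were found in 620293 UMIs, each of which allows up to 4.84 CPM. In the takinib cells of that cluster, which carried 22997 CPM of S100a8 and S100a9, Ccn1 stood at 24.6 CPM (11 UMIs) and Ccn2 at 89.3. Epithelial markers came to 9160 CPM in its vehicle cells and 3756 CPM in its takinib cells. Macrophage and monocyte markers came to 3258 and 3843 CPM in takinib, against 392 and 1180 CPM in vehicle. A finer clustering held 98 vehicle and 9 takinib cells in the cluster led by these genes. The takinib cells here were thus mixed. The cluster led by Gkn2 and Muc5ac was found in takinib alone, 217 cells, with 4.25 CPM of Ccn1 and 21.2 of Ccn2.

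A further cluster, led by Reg1 and Tff2, was left unnamed because epithelial and acinar markers scored nearly alike. It held 553 and 742 cells, with 7.80% of 12935 genes higher and 6.1% lower past a log2 ratio of 1. In it Ccn1 was higher in takinib, 6.79 and 14.3 CPM, with a log2 ratio of 1.07 [0.45, 1.75]. Ccn2 was close to even there, at 138 and 143 CPM (0.05 [-0.10, 0.20]), as was Crim1 at 66 and 68 CPM (0.04 [-0.17, 0.26]). Nt5e stood at 42.1 and 25.6 CPM (-0.72 [-1.02, -0.42]). Acinar markers came to 2026 and 4093 CPM in this cluster, and S100a8 with S100a9 to 87.8 and 4214.5 CPM. Early-response genes came to 1360 and 4091 CPM, and median depth was 5313 and 10868 UMIs. The part of these features in the values was not tested. Both Ccn1 levels in this cluster lay below the 19.8 CPM of Ccn1 in vehicle empty droplets. With every cell thinned to the same depth, 1.08% of vehicle and 0.809% of takinib cells of the cluster had a Ccn1 UMI. The Ccn1 ratio here is therefore not read as a difference of these cells. The difference from the Cdkn2a cluster, where Ccn1 was lower in takinib, was not tested.

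Shares of cells gave the same order after depth was made equal. With each cell thinned to 1000 UMIs, Nt5e was found in 14.0% [12.1, 16.1] of vehicle and 4.67% [3.5, 6.1] of takinib epithelial cells, and Ccn1 in 10.8% [9.13, 12.7] and 3.48% [2.47, 4.75]. Before thinning these shares were 39.3% and 21.1% for Nt5e, and 26.4% and 17.0% for Ccn1. Takinib neutrophils, which should lack these transcripts, gave 1.15% for Nt5e and 0.218% for Ccn1 at the same thinned depth, and 2.31% and 0.460% before thinning at a median of 1867 UMIs. Crim1 shows why thinning matters, with 21.3% and 32.1% of epithelial cells before it and 4.83% and 4.30% after. Cells with at least 3 different members made up 6.08% of thinned vehicle and 1.10% of thinned takinib epithelial cells (44.2% and 36.2% before thinning).

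**Figure D3:**
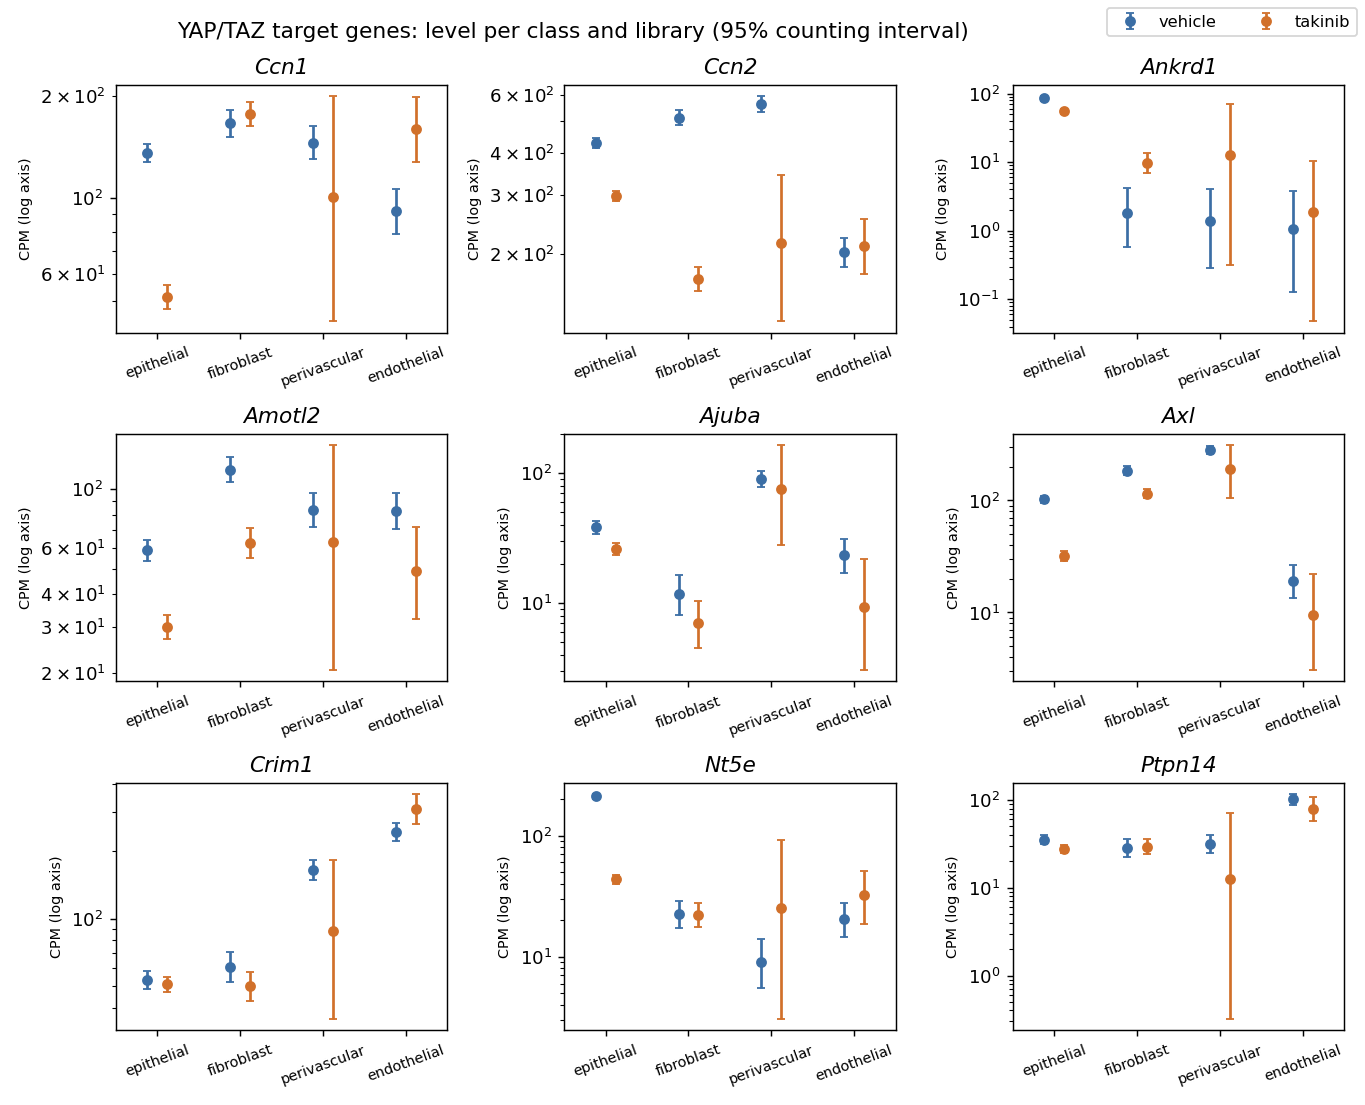
CPM of each member (log axis, 1 panel per gene) in the 4 classes of the vehicle (blue) and takinib (orange) libraries; bars are exact 95% Poisson intervals of the summed counts. The takinib perivascular bars are wide because that class has 15 cells, and epithelial Nt5e stands at 211 and 43.8 CPM.

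The vehicle library mixed animals, and its cells could be parted by sex-linked transcripts. In the Cdkn2a cluster 110 vehicle cells had Xist alone, 402 had Y-linked UMIs alone, and 662 takinib cells had Xist alone. Nt5e was at 435 CPM [393, 480] in the first group, 186 [173, 200] in the second and 40.7 [36.9, 44.8] in takinib. Ccn1 followed the same order at 260 [228, 296], 131 [120, 143] and 54.9 [50.4, 59.6] CPM. For both genes the female and male vehicle cells thus differed from each other beyond counting error, and both lay above takinib.

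Ccn2 in the same cluster stood at 752 CPM [696, 812] in female vehicle, 397 [378, 417] in male vehicle and 324 [314, 336] in takinib cells. Amotl2 had 96.9, 59.8 and 31.2 CPM in that order, and Ajuba had 62.0, 37.1 and 27.5. Axl had another order, with 68.7 CPM [52.6, 88.3] in female vehicle, 130 [119, 141] in male vehicle and 30.9 [27.6, 34.5] in takinib cells. Crim1 had 41.7, 63.1 and 53.0 CPM, so takinib lay between the vehicle parts. Ankrd1 was alike in the vehicle parts, at 105 [84.6, 128] and 100.2 [90.5, 111] CPM, against 58.3 [53.7, 63.1] in takinib.

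**Figure D4:**
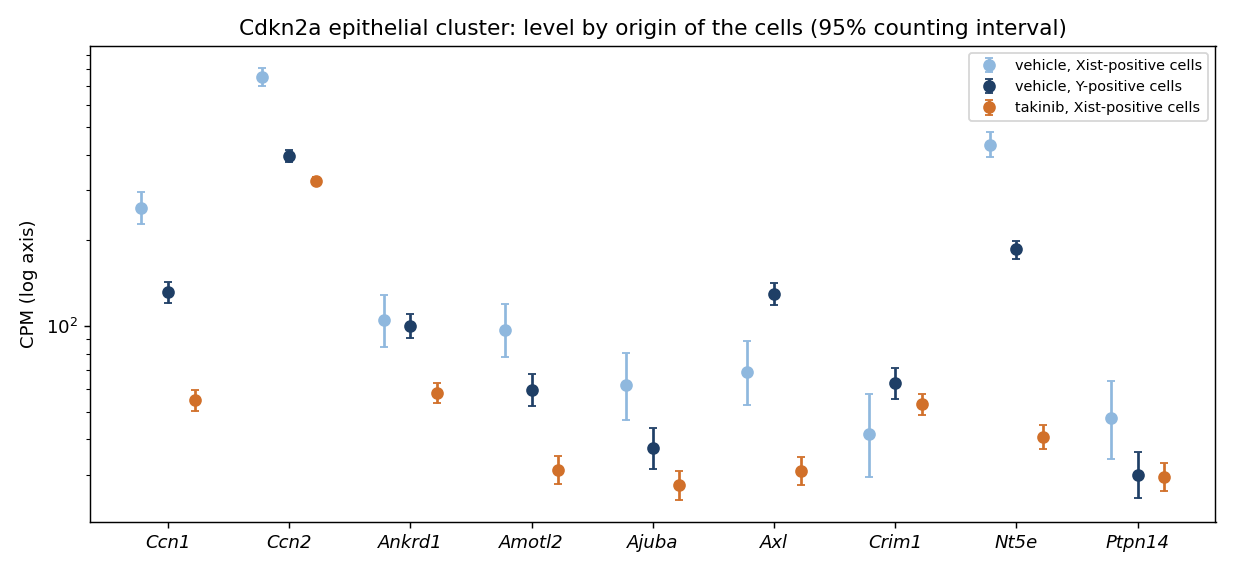
CPM (log axis) of each member (x axis) in the Cdkn2a epithelial cluster for vehicle cells with Xist, vehicle cells with Y-linked transcripts and takinib cells with Xist, with exact 95% Poisson intervals. Nt5e stands at 435, 186 and 40.7 CPM, and for Axl the male vehicle cells are the highest at 130 CPM.

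In fibroblasts the members divided, with Ccn2 lower, Ankrd1 higher and Ccn1 near even. Of the 9 members 1 was lower and 1 higher past a log2 ratio of 1, where 15.6% of 12945 genes were lower and 8.44% higher. The median of the members was -0.28, against -0.18 over all genes. Ccn2 stood at 512 CPM in vehicle and 168 CPM [155, 182] in takinib, a log2 ratio of -1.61 [-1.75, -1.47]. Ccn1 stood at 166 and 177 CPM (0.09 [-0.09, 0.26]). By origin it stood at 95.2 CPM [69.2, 128] in female vehicle, 203 [179, 230] in male vehicle and 181 [167, 196] in takinib cells with Xist. Its log2 ratio was 0.89 against female and -0.20 against male vehicle cells. Ankrd1 rested on 5 vehicle and 35 takinib UMIs, 1.79 and 9.83 CPM [6.85, 13.7], with a log2 ratio of 2.46 [1.10, 4.17]. The 35 UMIs came from 16 of 312 cells. Ankrd1 stayed past a log2 ratio of 1 in 13 of 15 alternatives. Its lowest value was 0.60 against female vehicle cells, which held 0 UMIs and were set to the floor.

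Amotl2 stood at 119 and 62.6 CPM in fibroblasts (-0.93 [-1.18, -0.68]) and Axl at 185 and 115 CPM (-0.68 [-0.88, -0.50]). Crim1, Ptpn14 and Nt5e had log2 ratios of -0.28, 0.04 and -0.02 with intervals that spanned 0. Ajuba, at 11.8 and 7.02 CPM, had -0.75 [-1.56, 0.05]. S100a8 and S100a9 came to 78.3 CPM of vehicle and 9405 CPM of takinib fibroblast UMIs, epithelial markers to 387 and 341 CPM, and early-response genes to 1770 and 4477 CPM, whose part in these values was not tested.

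The class-level value of Ccn2 changed once fibroblasts were divided further. The finer clustering gave a cluster led by Col12a1 and Sfrp1 with 564 vehicle and 74 takinib cells, and a cluster led by Serpinb2 and Ptgis with 116 and 255 cells. The latter was left unnamed because mesothelial markers scored close to fibroblast ones. Within the Col12a1 Sfrp1 cluster Ccn2 stood at 638 CPM [604, 672] in vehicle and 359 CPM [291, 437] in takinib, a log2 ratio of -0.83 [-1.14, -0.54]. Within the Serpinb2 Ptgis cluster it stood at 109 [85.9, 137] and 150 [137, 164] CPM, a log2 ratio of 0.46 [0.10, 0.83]. The clusters therefore differed in sign for Ccn2, and the class-level ratio of -1.61 lay outside both because the mix of the clusters differed between the libraries. In the Serpinb2 Ptgis cluster mesothelial markers came to 1562 and 517 CPM and epithelial markers to 860 and 358 CPM. S100a8 with S100a9 came to 139 and 10043 CPM there. The part of these features in the Ccn2 value was not tested.

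Ccn1 showed 189 and 188 CPM in the Col12a1 Sfrp1 cluster (0.00 [-0.45, 0.41]) and 108 and 180 CPM in the Serpinb2 Ptgis cluster (0.74 [0.38, 1.11]). Amotl2 was even in the first, 116 and 101 CPM (-0.19 [-0.81, 0.38]), and lower in the second, 127 and 59.0 CPM (-1.11 [-1.48, -0.73]). Axl had 190 and 232 CPM in the first (0.28 [-0.12, 0.67]) and 163 and 107 CPM in the second (-0.61 [-0.92, -0.28]). Ankrd1 had 5 and 10 UMIs in the first, and in the second 0 and 33 UMIs. There a floor of 3 vehicle UMIs puts the log2 ratio at 1.16, with an interval that starts at 0.78 and has no upper end. Of 7 members counted in the first cluster 0 passed a log2 ratio of 1 (9.93% of 7047 genes lower, 4.41% higher). In the second 1 was lower and 1 higher (10.4% of 9667 genes lower, 9.64% higher).

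**Figure D5:**
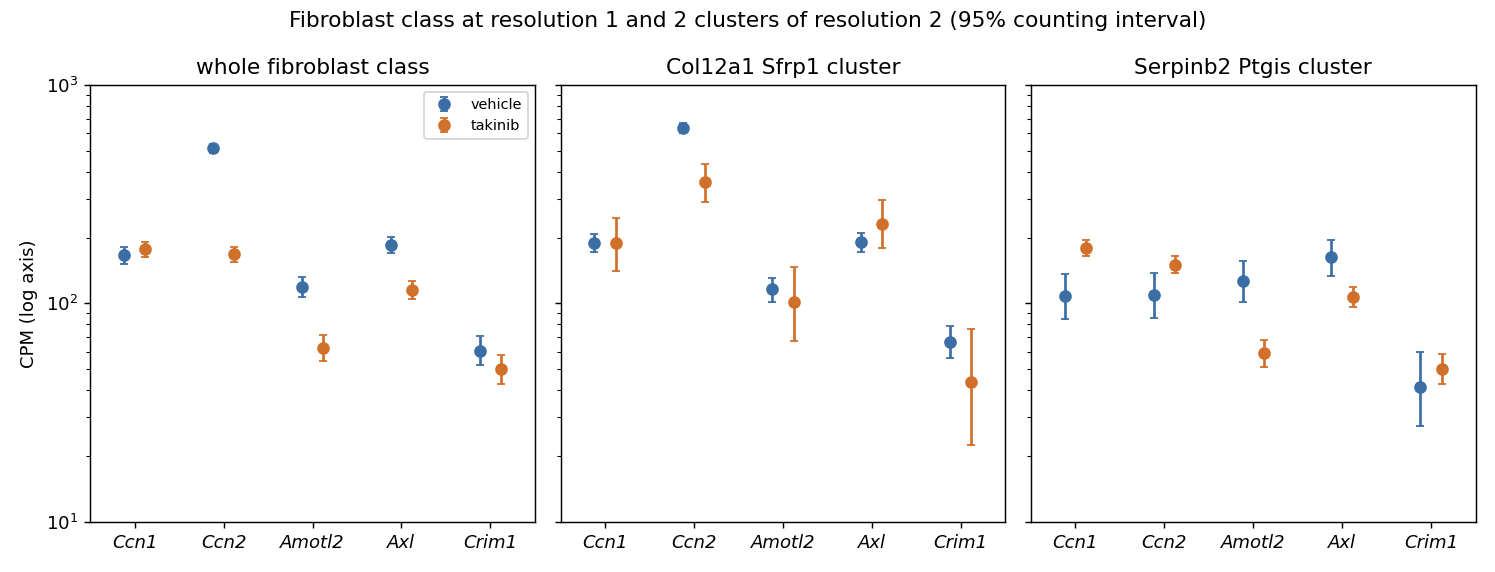
CPM (log axis) of 5 members in the whole fibroblast class and in 2 clusters of the finer clustering, for vehicle (blue) and takinib (orange), with exact 95% Poisson intervals. Ccn2 stands at 512 and 168 CPM in the class, at 638 and 359 in the Col12a1 Sfrp1 cluster and at 109 and 150 in the Serpinb2 Ptgis cluster.

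In perivascular cells 6 of the 9 members could be counted and Ccn2 was the member past a log2 ratio of 1. It stood at 562 CPM in vehicle and 215 CPM [125, 344] in takinib, from 17 takinib UMIs, with a log2 ratio of -1.39 [-2.17, -0.70]. Among 2628 genes 13.6% were lower and 3.69% higher past that line. The other 5 had log2 ratios between -0.90 for Crim1 and -0.26 for Ajuba, and each interval spanned 0. Axl, for example, stood at 284 and 190 CPM [106, 313]. With 15 takinib cells a difference in these 5 genes was not detectable at this depth.

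Endothelial cells showed both signs. Ccn1 was higher in takinib, 91.7 CPM in vehicle and 160 CPM [128, 198] in takinib, with a log2 ratio of 0.80 [0.41, 1.18]. Crim1 stood at 244 and 311 CPM [265, 362], a log2 ratio of 0.35 [0.08, 0.61]. Ccn2 was close to even at 202 and 211 CPM (0.06 [-0.25, 0.37]). Amotl2 was lower, at 82.9 and 49.0 CPM (-0.76 [-1.42, -0.15]), while Ptpn14 at 102 and 79.1 CPM had an interval that spanned 0 (-0.37 [-0.89, 0.12]). The sign of Amotl2 depended on origin. It stood at 28.7 CPM in female vehicle (4 UMIs), 82.4 in male vehicle and 51.3 in takinib cells with Xist. Its log2 ratio was 0.77 against female vehicle cells and stayed below 0 in 12 of 13 alternatives.

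Of the 8 endothelial members counted, 2 were lower and 0 higher past a log2 ratio of 1, against 12.8% and 6.14% of 9171 genes. These were Ajuba at -1.32 [-3.01, 0.01] and Axl at -1.03 [-2.74, 0.32], each with 5 takinib UMIs and an interval that reached 0. Axl, at 19.3 and 9.42 CPM, lay below its 82.9 CPM in vehicle empty droplets. Its ratio is therefore not read as a difference of endothelial cells. The endothelial Ccn1 value also depended on origin, with 14.4 CPM [1.74, 51.9] in 62 female vehicle cells (2 UMIs), 99.5 [80.3, 122] in 254 male vehicle cells and 158 [125, 196] in 70 takinib cells with Xist. S100a8 and S100a9 came to 77.2 CPM of vehicle and 10243 CPM of takinib endothelial UMIs, and early-response genes to 1597 and 3654 CPM, whose part was not tested. Thinned to 1000 UMIs, 4.61% [3.16, 6.48] of vehicle and 10.0% [4.42, 18.8] of takinib endothelial cells had a Ccn1 UMI (12.1% and 28.8% before thinning).

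Outside the 4 classes Axl and Nt5e were also well measured in macrophages. That class was made of different clusters in the libraries, with 2669 vehicle and 309 takinib cells in the cluster led by H2-Ab1 and 13 and 1151 in the cluster led by H2-M2. Monocyte markers came to 1795 and 7062 CPM in it, and S100a8 with S100a9 to 347 and 9017 CPM, whose part in the values was not tested. Axl stood at 402 CPM in vehicle and 145 CPM in takinib macrophages, a log2 ratio of -1.47 [-1.54, -1.41]. Nt5e stood at 61.5 and 28.2 CPM, a log2 ratio of -1.12 [-1.27, -0.98]. The vehicle value of Nt5e lay above its 44.1 CPM in empty droplets. The 7 members besides Axl and Nt5e had at most 9.31 CPM in macrophages of either library. In this class 6 of the 9 members were lower and 0 higher past a log2 ratio of 1, against 10.3% and 8.96% of 14547 genes. Of those 6, Ccn1, Ccn2, Crim1 and Ptpn14 lay below their level in empty droplets in the vehicle macrophages (3.35 against 19.8 CPM for Ccn1), so their ratios are not read as differences of macrophages.

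The upstream genes of the pathway were less uniform than the members in epithelial cells. Of 18 Hippo core genes measured there, 3 were lower and 1 higher past a log2 ratio of 1, against 11.9% and 9.79% of all genes. Their median of -0.13 was near the -0.17 of all genes. The lowest were Tead2 (87.7 and 33.9 CPM, -1.37 [-1.55, -1.19]) and Vgll3, a TEAD cofactor (1.89 and 0.759 CPM, -1.32 [-2.69, -0.03]). The highest were Tead4 (3.53 and 7.59 CPM, 1.10 [0.48, 1.77]) and Amot (20.8 and 24.5 CPM, 0.24 [-0.04, 0.52]). Yap1, Wwtr1 and Tead1 were picked for their roles with values already seen. In epithelial cells Yap1 had 64.0 and 34.1 CPM (-0.91), Tead1 had 123.9 and 65.7 CPM (-0.92) and Wwtr1 had 65.9 and 61.5 CPM (-0.10).

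In fibroblasts all 17 Hippo core genes counted had ratios below 0, with a median of -0.55 (all genes -0.18). Past a log2 ratio of 1, 2 were lower and 0 higher, against 15.6% and 8.44% of all genes. Amot was lowest (6.08 and 1.12 CPM, -2.44 [-4.47, -0.82]), then Vgll3 (94.0 and 46.3 CPM, -1.02 [-1.31, -0.73]), while Tead2 (-0.07) and Stk4, the kinase Mst1 (-0.16), were highest. Wwtr1 had 99.7 and 52.5 CPM there (-0.92 [-1.20, -0.65]). Within the fibroblast clusters the signs were mixed. Of the Hippo core genes counted, 7 lay above and 9 below 0 in the Col12a1 Sfrp1 cluster (median -0.23). In the Serpinb2 Ptgis cluster 4 lay above and 12 below 0 (median -0.33). In endothelial cells 4 of 15 were lower and 0 higher (12.8% and 6.14% of all genes), with a median of -0.59 against -0.16 over all genes. In perivascular cells 1 of 7 was lower and 0 higher, near the 13.6% and 3.69% of all genes.

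A list of 14 other reported YAP and TAZ targets gave 2 lower and 1 higher in epithelial cells, with a median of -0.36. These counts were near the 11.9% lower and 9.79% higher of all genes, whose median was -0.17. The lowest were Foxf2 (1.89 and 0.169 CPM, -3.49) and Ccdc80 (12.6 and 5.23 CPM, -1.27), and the highest were F3, which encodes tissue factor (50.6 and 157 CPM, 1.64 [1.48, 1.80]), and Rbms3 (19.8 and 31.3 CPM, 0.66). In fibroblasts 6 of 14 were lower and 1 higher (15.6% and 8.44% of all genes), with a median of -0.87. Igfbp3, which binds insulin-like growth factors, was lowest (3203 and 151 CPM, -4.41 [-4.54, -4.28]), then Fjx1 (5.0 and 1.40 CPM, -1.83). F3 was highest there too (16.4 and 38.5 CPM, 1.23 [0.74, 1.74]), then Asap1 (-0.13). F3 thus went against most of the list in both classes. Igfbp3 was among the leading genes of the Col12a1 Sfrp1 cluster, which held 564 vehicle and 74 takinib cells. It was the lowest of the list within that cluster too. The part of the cluster mix in its class value was not tested. In endothelial cells 1 of 9 and in perivascular cells 1 of 8 was lower, near the 12.8% and 13.6% of all genes. In both classes 0 were higher, against 6.14% and 3.69%.

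Genes of the actin and serum response factor programme, which is often active together with YAP, gave 2 of 10 lower and 0 higher in epithelial cells, with a median of -0.31. Actg2 had 16 UMIs in vehicle and 0 in takinib, where a floor of 3 UMIs puts the log2 ratio at -3.00. Tpm1, a tropomyosin, had 1105 and 453 CPM (-1.29), while Cnn2 (0.25) and Tagln (0.03) were highest. In fibroblasts 3 of 11 were lower and 0 higher, with Actg2 (-1.65) and Cnn1 (-1.44) lowest and Srf (0.13) and Acta2 (-0.01) highest. In the Col12a1 Sfrp1 cluster 7 of 10 were lower, against 9.93% of all genes. In the Serpinb2 Ptgis cluster 5 of 11 were higher, against 9.64% of all genes. The difference between these clusters was not tested. In endothelial cells 3 of 9 were lower and 2 higher, and in perivascular cells 0 of 9 passed. Over all genes 11.9% of epithelial, 15.6% of fibroblast, 12.8% of endothelial and 13.6% of perivascular ones were lower past the line. Higher were 9.79%, 8.44%, 6.14% and 3.69% in that order.

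Most genes of dissociation and immediate-early response were higher in takinib in these 4 classes. In epithelial cells 9 of 16 were higher and 0 lower, with a median of 1.04. Fos (123 and 633 CPM, 2.37 [2.27, 2.47]) and Atf3 (37.6 and 163 CPM, 2.11) were highest, and the heat shock genes Hspa1a (-0.96) and Hspa1b (-0.71) were lowest. In fibroblasts 10 of 16 were higher and 2 lower, with Fosb (26.4 and 205 CPM, 2.96) and Fos (73.6 and 425 CPM, 2.53) highest and Hspa1b (-1.62) and Hspa1a (-1.50) lowest. In endothelial cells 9 of 16 were higher and 2 lower, and in perivascular cells 9 of 13 and 2. Over all genes 9.79% of epithelial, 8.44% of fibroblast, 6.14% of endothelial and 3.69% of perivascular ones were higher past the line. Lower were 11.9%, 15.6%, 12.8% and 13.6% in that order.

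The genes whose levels were most like each member were sought over 18 sums of class and library, among 11812 genes. The sums share libraries and depth, so the Pearson correlations of log2(CPM + 10) are a description. Ccn1 was closest to Sned1 (0.98), Npdc1 (0.98) and Phldb2 (0.97), and Ccn2 to Tnks1bp1, Ptk7 and Lzts2 (each 0.98). Ankrd1 was closest to Sprr1a (0.99), Epha1 and Sel1l3 (each 0.97). Amotl2 was closest to Parva, Rbfox2 and Tead1 (each 0.98), the last being the DNA-binding partner of YAP. Ajuba was closest to Plxnb1 (0.96), Fjx1 and Nes (each 0.94), and Ptpn14 to Ephb4, Pxdn and Nfib (each 0.97). Crim1 was closest to Tanc1 (0.98), 4931406P16Rik and Kitl (each 0.96). Axl had looser companions in Itgb5 (0.91), Gm10134 (0.88) and Plxdc2 (0.87), and so had Nt5e in Igsf9 (0.83) and Celsr2 (0.82).

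Each member lies on a different locus in the GENCODE M21 annotation of GRCm38. On the plus strand are Ccn2 (chr10:24595442-24598683), Amotl2 (chr9:102716672-102733418), Crim1 (chr17:78200248-78376592), Nt5e (chr9:88327197-88372092) and Ptpn14 (chr1:189728268-189876695). On the minus strand are Ccn1 (chr3:145646976-145649981), Ankrd1 (chr19:36111961-36120099), Ajuba (chr14:54567472-54577558) and Axl (chr7:25757273-25788705). Amotl2 and Nt5e share chromosome 9, far apart, and no other members share a chromosome.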

How the data were processed

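Single-cell RNA-seq of 1 vehicle and 1 takinib library was analysed from the authors' deposited raw UMI counts per gene and barcode. Per the file headers, Cell Ranger 4 wrote the vehicle matrix and 6.1.1 the takinib matrix, whereas the submitters' processing notes name Cell Ranger 2.1.1, STAR 2.0.4b, featureCounts 1.45 and mm10; which of these made the counts is not given in the sources used here. Barcodes were kept with at least 1000 UMIs, 500 genes and at most 20% mitochondrial UMIs. Scrublet marked 2.85% of vehicle barcodes, which were removed (281); it marked 0.00373% in takinib, so the highest 6% of scores (1607) were removed there, a difference in treatment of the libraries. Cells were clustered in scanpy 1.11.5 (2000 variable genes, 30 components, Leiden resolution 1) without the members and listed genes. A cluster took the class of its best marker score if at least 3 markers were detected and no second class reached 0.75 of that score. UMIs were summed per class and library and scaled to CPM. Ratios have no pseudocount; a library at 0 was set to a floor of 3 counts. Ratio intervals are conditional binomial, level intervals Poisson and share intervals Clopper-Pearson; PCR duplicates are removed by UMIs, and intervals cover counting error only. On simulated counts 98.4% of genes changed by a log2 ratio of 2 were recovered in the epithelial comparison of 14982 genes. The text names the 9 members, the 2 highest and 2 lowest genes of each list in epithelial cells and fibroblasts, and the 3 genes most like each member, of which 1 is not reported here. Members and lists were chosen with earlier results of these data known. Alternatives changed filters, doublets, depth, resolution, naming, origin of vehicle cells, scaling, added CPM and neutrophil RNA. The cluster splits, male vehicle cells and the droplets of 200 to under 500 UMIs were chosen after seeing the data.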

Additional observations from a re-analysis of the deposited data

Results flagged for a closer look

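Ccn1 differed in sign between classes, with a log2 ratio of takinib to vehicle of 0.80 in endothelial cells and -1.40 in epithelial cells. Ankrd1 did so as well, with 2.46 in fibroblasts, from 5 and 35 UMIs, and -0.63 in epithelial cells. Against female vehicle fibroblasts, which held 0 UMIs and were set to the floor, it was 0.60. With 1 library per group the difference between classes was not tested for either gene.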

How the results depend on the processing

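With 1 library per group no replicate could be left out. No paired analysis was possible because each group has 1 library and no result comes from a test. Counts of members past the line were 3 in epithelial cells, 2 in fibroblasts, 1 in perivascular and 2 in endothelial cells. At 1.5-fold they became 5, 5, 2 and 5. Lower in takinib at 1.5-fold were 5, 4, 2 and 3 members, against 24.8%, 29.0%, 24.7% and 27.0% of all genes counted, and higher were 0, 1, 0 and 2, against 15.6%, 15.8%, 12.3% and 14.4%. Thinning gave 5 epithelial and 0 endothelial members. Female vehicle cells alone gave 6 epithelial and 2 perivascular. In fibroblasts resolution 2 or the Col12a1 Sfrp1 cluster alone gave 0, and 10 CPM added gave 1. In endothelial cells 10 CPM added gave 0, and stricter depth, 10% mitochondrial UMIs, male vehicle cells, the median gene at 0 and the neutrophil subtraction each gave 1. The epithelial median of -0.63 moved to -0.85 with no doublets removed, -1.0 thinned, -0.86 named by score alone, -0.90 with classes made cell by cell, -1.24 against female vehicle cells and -0.46 with the median gene at 0. At resolution 0.5 it was 1.90, with Ccn1 at 3.14, Axl at 1.03 and Nt5e at 2.76 reversed; there the main carcinoma cluster stayed unnamed and 89 vehicle and 297 takinib cells of the Muc2 and Gkn2 clusters made up the class. The fibroblast median of -0.28 moved to -0.66 against female vehicle cells, and to 0.28 in the Serpinb2 Ptgis cluster alone, where Ccn2 reversed to 0.46. The endothelial median of -0.15 moved to 0.77 against female vehicle cells, and Ajuba reversed to 0.61 when thinned. Beyond the constructions named, the cause was not tested. Epithelial Ccn1 and Nt5e were past -1 in 14 of 15 alternatives and Axl in 13. Without the filter on low counts the share of genes past the line in either direction went from 21.7% to 25.1% in epithelial, 24.0% to 27.1% in fibroblast, 17.3% to 31.8% in perivascular and 19.0% to 25.8% in endothelial cells. Classes made cell by cell left 6 takinib perivascular cells and gave no value. Depth limits Ankrd1 in vehicle fibroblast, perivascular and endothelial cells and all takinib perivascular values.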
